A study of Homo sapiens with 10 samples.

Results

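MHC class I molecules carry short peptides from inside the cell to its surface, where CD8+ T cells and natural killer cells read them. A heavy chain pairs with the light chain B2M in the endoplasmic reticulum, the TAP1–TAP2 transporter pumps in peptides that the proteasome has cut in the cytosol, and tapasin, the product of TAPBP, holds the empty molecule at the transporter until a peptide fits. Pluripotent and germline cells are known for low class I levels, and interferon gamma is the classical inducer of the pathway. The 9 genes described here are the classical heavy chains HLA-B and HLA-C, the non-classical heavy chains HLA-E, HLA-F and HLA-G, the light chain B2M, the transporter subunits TAP1 and TAP2, and TAPBP. They were chosen by name, with no threshold on their values, from 64940 entries of a table of TPM per gene, and 6 of them reached a mean of at least 1 TPM and were tested, within a fit of 16687 genes.

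RNA sequencing of 2 control and 2 oeDAZL libraries was compared. All 4 come from the hESC line H9, so that a single line stands for each group. The control libraries are labelled as wild type (wt) and spontaneously differentiated, and the oeDAZL libraries as hPGCLCs that overexpress DAZL, a germ cell RNA-binding protein. The deposited design text and the study call both groups PGCLCs. For its overexpression and silencing experiments in general, the study describes BMP4 and BMP8a and transduction with a lentivirus. Its methods for the small RNA libraries give BMP4 and BMP8a for both groups. There the lentivirus held DAZL and GFP or GFP alone, and the cells were collected by FACS. These sources differ on the control cells, and if the labels hold, an effect of DAZL and one of the culture cannot be told apart. Nothing says that the libraries of a group came from separate cultures, so the p-values measure only spread between libraries. Limma draws the spread of each gene toward a trend with expression level over all tested genes. DAZL measured 0 and 0.0333 TPM in control, against 102 and 101 TPM in oeDAZL, as labelled. Of 10 PGC markers 8 were tested, of which 2, DAZL and PDPN, were higher in oeDAZL at an unadjusted P of at most 0.05 in limma. DAZL is the overexpressed gene, so its difference was set by the design, and PDPN had an unadjusted P = 0.0499 in limma. None was lower, and 6 of the 8 had negative log2 fold changes. Over all tested genes 5.02% were higher and 15.2% lower at that threshold. Among the specifiers of PGCs, TFAP2C lay between 44.3 and 53.9 TPM in the 4 libraries, whereas SOX17 lay between 2.52 and 3.35 TPM, PRDM1 between 1.47 and 2.32 TPM and NANOS3 between 0.732 and 1.66 TPM. PDPN measured 32.9 and 49.7 TPM in control, against 58.5 and 52.5 TPM in oeDAZL, and DDX4, a marker of later germ cells, was listed at 0 throughout. TPM is scaled to the same total in each library and keeps no read depth, so no counting error can be given. A mixture is measured as a whole, and fewer cells of a type cannot be told apart from less RNA per cell.

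The table holds 58 entries under the names of the 9 genes, because its annotation repeats the MHC on alternative assemblies of chromosome 6. The 49 entries outside the primary assembly were listed at 0 in all 4 libraries. For HLA-B, HLA-F and TAPBP the first entry of the name is such a copy, so the entry with the identifier of the primary assembly was used for every gene. In GENCODE 44 on hg38, 8 of the 9 genes lie on chromosome 6, in the order HLA-F (29722775 to 29738528), HLA-G (29826967 to 29831125), HLA-E (30489509 to 30494194), HLA-C (31268749 to 31272130), HLA-B (31353872 to 31367067), TAP2 (32821833 to 32838739), TAP1 (32845209 to 32853816) and TAPBP (33299694 to 33314284). B2M lies on chromosome 15 from 44711358 to 44718851 and has 4 exons in its canonical transcript.

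The upstream sequences of an abundant and a scarce pair of these genes are shown, because class I genes are known to share promoter elements. RefSeq start sites on GRCh38.p14 were found for 8 of the 9 genes, all but HLA-E, with 11 windows of 300 bases. Each sequence below runs 5′ to 3′ on the strand of the gene, from 200 to 31 bases before its RefSeq start. For each gene shown, that start lies inside the GENCODE bounds given above, such as 44711517 for B2M and 31357179 for HLA-B. At least part of each sequence therefore lies within those bounds. Capitals mark matches to any of 4 motifs on either strand, namely CCAAT, TGACGTCA, the interferon-stimulated core (GAAA, then any 2 bases, then GAAA) and the kappa B element (GGGGATT directly followed by CCCC). Overlapping matches run together.
B2M, chr15:44711317-44711486, forward strand: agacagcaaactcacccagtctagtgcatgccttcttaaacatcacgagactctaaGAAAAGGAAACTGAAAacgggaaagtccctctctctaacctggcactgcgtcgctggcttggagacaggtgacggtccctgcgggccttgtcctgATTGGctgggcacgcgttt
HLA-C, chr6:31272123-31272292, reverse strand: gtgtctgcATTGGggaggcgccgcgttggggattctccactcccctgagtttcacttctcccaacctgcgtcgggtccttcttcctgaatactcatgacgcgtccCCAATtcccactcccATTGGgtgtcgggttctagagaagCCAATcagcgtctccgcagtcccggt
HLA-B, chr6:31357210-31357379, reverse strand: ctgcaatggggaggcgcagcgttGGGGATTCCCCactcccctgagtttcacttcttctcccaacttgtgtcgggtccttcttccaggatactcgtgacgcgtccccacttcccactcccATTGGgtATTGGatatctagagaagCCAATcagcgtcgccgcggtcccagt
TAP1, chr6:32853735-32853904, reverse strand: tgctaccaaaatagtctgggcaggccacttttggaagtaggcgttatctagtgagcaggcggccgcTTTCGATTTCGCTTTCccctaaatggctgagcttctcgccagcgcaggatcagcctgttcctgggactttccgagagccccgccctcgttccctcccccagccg

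The interferon-stimulated core was found in 5 of the 11 windows, those of B2M, TAP1 (1 of its windows), TAP2, TAPBP and HLA-F, against 3.57% of all 35116 windows of the RefSeq table. CCAAT was found in 6 of the 11 windows, 1 each of HLA-B, HLA-C, HLA-F, HLA-G, B2M and TAP1, against 34.6% of all windows. The kappa B element was found in 1 of the 11 windows, that of HLA-B, against 0.0313% of all windows, and TGACGTCA in none, against 1.85%. B2M, TAP1 and TAPBP each hold 2 overlapping matches to the interferon-stimulated core. Only exact matches were counted, so a window without a match may still hold a variant of the element. A match describes the letters in the window and does not show that a factor bound there.

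The levels of the 9 genes spread from about 90 TPM to under 1 TPM. Ordered by the mean over the 4 libraries, they were HLA-C (91.8 TPM), B2M (58.5), HLA-E (10.8), TAPBP (5.25), HLA-B (2.02), TAP2 (1.16), HLA-G (0.986), HLA-F (0.530) and TAP1 (0.190), each a mean TPM. From HLA-C down to HLA-B, no library of a gene overlapped with those of the next gene in this order. HLA-B and TAP2, TAP2 and HLA-G, and HLA-G and HLA-F overlapped with each other between libraries, whereas HLA-F and TAP1 did not. HLA-C lay above 89.4% of the tested genes by mean TPM and B2M above 82.3%, while TAP2 lay above 2.97%.

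**Figure D1:**
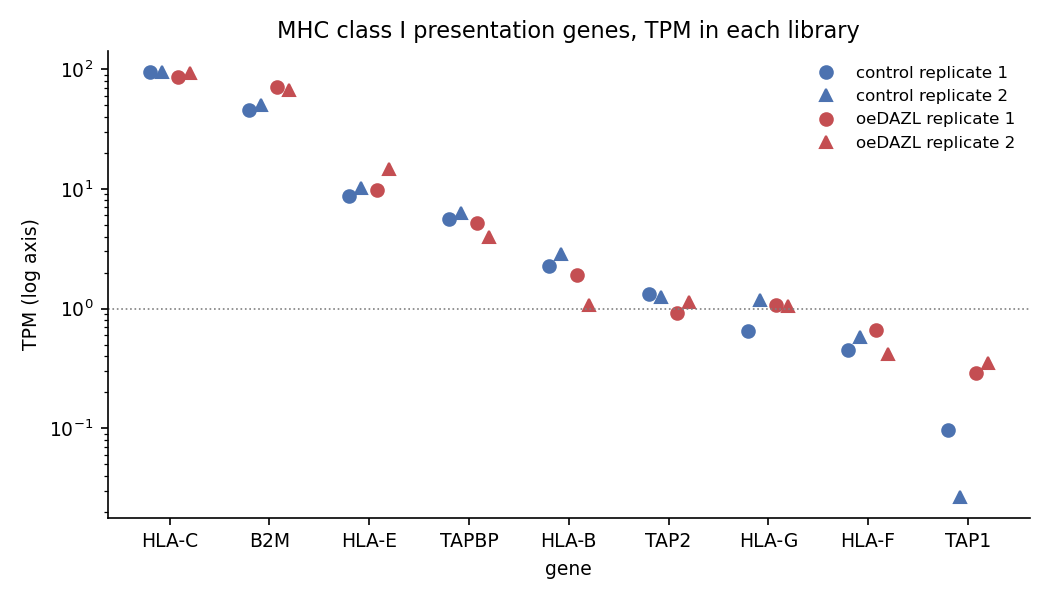
TPM (log axis) of the 9 MHC class I presentation genes in each library, with control in blue, oeDAZL in red, circles for replicate 1, triangles for replicate 2 and a dotted line at 1 TPM. HLA-C and B2M stand above 45 TPM in every library, TAP1 stays under 0.35 TPM, and the oeDAZL libraries lie above both control libraries for B2M and TAP1.

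B2M had the smallest P of the 6 tested members. B2M, the invariant light chain that every class I heavy chain needs to fold, measured 45.8 and 49.8 TPM in control, against 70.8 and 67.6 TPM in oeDAZL. The groups did not overlap, with oeDAZL above control. The log2 fold change on the log2(TPM + 1) scale was 0.53 (standard error 0.07, 95% interval 0.35 to 0.70), which is a 1.44-fold higher level. Limma gave an unadjusted P = 0.000312 and a Benjamini-Hochberg adjusted p = 0.0896 over all tested genes, so that B2M passed the unadjusted threshold of 0.05 and missed the adjusted one. Its log2 fold change stayed between 0.47 and 0.63 under 12 other settings, where the adjusted p in limma ranged from 0.0389 to 0.337, on both sides of 0.05. No 50-base word of its canonical transcript occurs in a transcript of another gene in GENCODE 44.

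The classical heavy chains did not share this difference. HLA-C, which presents peptides to T cells and is a main ligand of the KIR receptors of natural killer cells, measured 94.6 and 94.7 TPM in control, against 85.9 and 92.1 TPM in oeDAZL. The oeDAZL libraries lay below the controls by a small margin, and the log2 fold change of −0.09 (standard error 0.06, 95% interval −0.24 to 0.06) had an adjusted p = 0.463 in limma. Its sign depended on the scaling, with 0.01 under median-of-ratios scaling. HLA-B, the other classical heavy chain among the members, measured 2.25 and 2.84 TPM in control, against 1.90 and 1.08 TPM in oeDAZL. The log2 fold change of HLA-B was −0.53 (standard error 0.25, 95% interval −1.13 to 0.08), with an unadjusted P = 0.0783 and an adjusted p = 0.299 in limma. Leaving out oeDAZL replicate 1 gave −0.76 with an unadjusted P = 0.0453 in limma, and leaving out oeDAZL replicate 2 gave −0.29.

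Within each library HLA-C exceeded HLA-B by far. The ratio of HLA-C to HLA-B TPM was 42.0 and 33.3 in control, against 45.3 and 85.2 in oeDAZL.

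Class I genes resemble each other, and the authors kept uniquely mapped reads, so the sharing of sequence was measured. Of the 50-base words of the canonical transcripts, 2.56% for HLA-B, 6.76% for HLA-C, 6.16% for HLA-E, 1.89% for HLA-F and 5.28% for HLA-G also occur in transcripts of other genes of the reference. With 100-base words the share did not exceed 1.23% for a member heavy chain. These are reference sequences, and class I genes are highly polymorphic. Loss of reads that differ from the reference was not tested, so levels of heavy chains relative to each other are uncertain.

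The non-classical heavy chains were lower than HLA-C throughout. HLA-E, whose product shows leader peptides of other class I chains to NKG2A on natural killer cells, measured 8.69 and 10.1 TPM in control, against 9.73 and 14.6 TPM in oeDAZL. The groups overlapped, and the difference rested on oeDAZL replicate 2. The log2 fold change was 0.32 (standard error 0.19, 95% interval −0.16 to 0.79), with an adjusted p = 0.406 in limma. It was 0.05 without oeDAZL replicate 2 and 0.58 without oeDAZL replicate 1, where the unadjusted P in limma was 0.0166.

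HLA-G, the heavy chain known from invading trophoblast, measured 0.647 and 1.18 TPM in control, against 1.07 and 1.04 TPM in oeDAZL. HLA-F, a chain found at the surface also without peptide, measured 0.451 and 0.581 TPM in control, against 0.666 and 0.421 TPM in oeDAZL. Both genes lay under the filter of a mean of 1 TPM, and their groups overlapped. Without the filter the log2 fold changes on the log2(TPM + 1) scale were 0.12 for HLA-G and 0.02 for HLA-F, with adjusted p-values in limma of 0.818 and 0.961.

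The heavy chains together were compared with their light chain within each library, since a ratio inside a library does not depend on how libraries are scaled. The summed TPM of the 5 heavy chains was 107 and 109 in control, against 99.3 and 109 in oeDAZL, of which HLA-C made up between 84.3% and 88.7%. Divided by B2M, the sum gave 2.33 and 2.19 in control, against 1.40 and 1.62 in oeDAZL. The ratio was thus 2.26 ± 0.0964 (SD, n = 2) in control and 1.51 ± 0.151 (SD, n = 2) in oeDAZL, and the groups did not overlap. The oeDAZL mean was 0.667 of the control mean, between 0.619 and 0.714 when a library was dropped. An exact permutation test of 2 against 2 libraries cannot give a two-sided p under 1 in 3, and none was run.

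**Figure D2:**
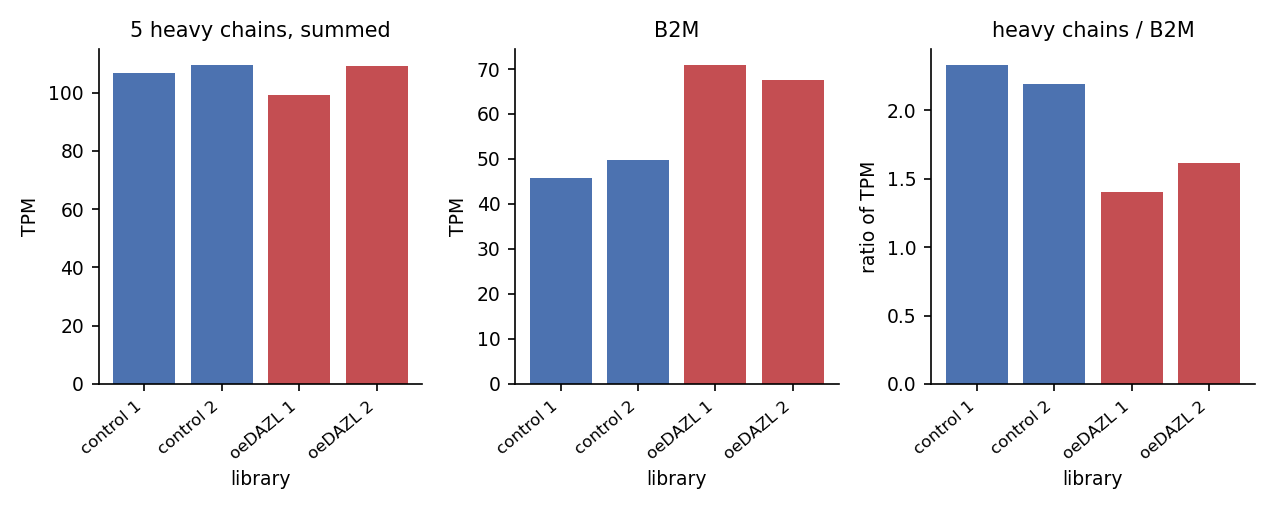
Summed TPM of HLA-B, HLA-C, HLA-E, HLA-F and HLA-G, TPM of B2M, and the ratio of both, as 1 bar per library with control in blue and oeDAZL in red. The heavy chain sum stays between 99.3 and 109 TPM, B2M is higher in both oeDAZL libraries, and the ratio is 2.33 and 2.19 in control against 1.40 and 1.62 in oeDAZL.

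The peptide transporter was scarce. TAP1 measured 0.0959 and 0.0269 TPM in control, against 0.290 and 0.349 TPM in oeDAZL. The groups did not overlap, with oeDAZL above control, at levels far under the filter, where the number of reads behind a value is unknown. Without the filter, limma gave a log2 fold change of 0.31 on the log2(TPM + 1) scale, with an unadjusted P = 0.0166 and an adjusted p = 0.342. TAP2, which forms the transporter with TAP1, measured 1.32 and 1.26 TPM in control, against 0.921 and 1.14 TPM in oeDAZL. The log2 fold change of TAP2, −0.18 (standard error 0.23, 95% interval −0.74 to 0.39), had an adjusted p = 0.705 in limma. A share of 35.3% of the 50-base words of TAP2 also occurs in a read-through transcript of the region, which was itself listed at 0 in all 4 libraries.

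TAPBP measured 5.64 and 6.25 TPM in control, against 5.15 and 3.97 TPM in oeDAZL. The oeDAZL libraries lay below the controls, and the log2 fold change of −0.33 (standard error 0.17, 95% interval −0.74 to 0.08) had an adjusted p = 0.332 in limma. It was −0.17 without oeDAZL replicate 2.

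Counted together, 1 of the 6 tested members, B2M, was higher in oeDAZL at an unadjusted P of at most 0.05, against 5.02% of all tested genes. None was lower, against 15.2% of all tested genes. When a fold change of 2 or more was required besides, limma called 0 of the 6 members and 0.689% of all tested genes. At an adjusted p of at most 0.05 it called 0 members and 0.0599% of all tested genes. For 4 of the 6 members, HLA-B, HLA-C, TAP2 and TAPBP, both oeDAZL libraries lay below both control libraries, an arrangement seen for 38.4% of all tested genes, and for B2M alone both lay above, as for 16.0% of all tested genes. The median log2 fold change was −0.13 over the 6 members and −0.08 over all tested genes. The median of the members became 0.11 when a mean of at least 5 TPM was required, which left 4 members, and 0.02 without a filter, so its sign depends on which members enter.

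**Figure D3:**
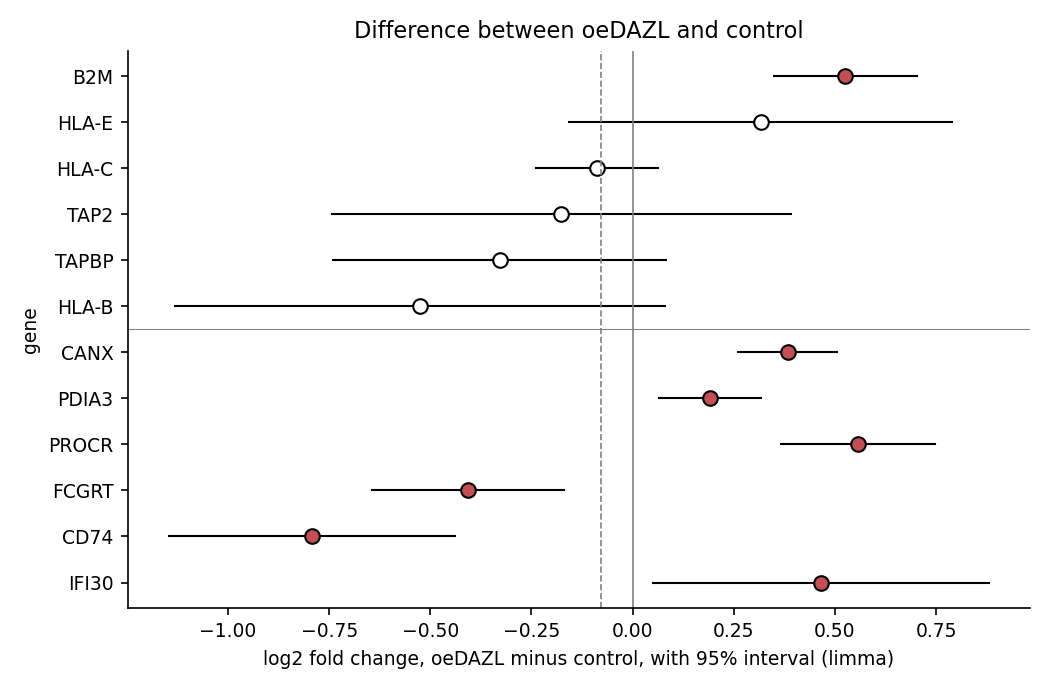
Log2 fold change, oeDAZL minus control, on the log2(TPM + 1) scale with 95% intervals from limma for the 6 tested members (above the grey line) and the 6 pathway and class II genes past an unadjusted P of 0.05. Filled points passed that threshold, and the dashed line is the median of all tested genes, −0.08. Among the members only the interval of B2M leaves out 0.

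The genes that act with class I molecules in peptide trimming and loading ranged widely in level, from CALR between 914 and 960 TPM to ERAP2, a trimming peptidase between 0.0208 and 0.237 TPM. Of 10 genes for peptide trimming and loading, 9 were tested, 2 were higher at an unadjusted P of at most 0.05 and none was lower. Over all tested genes 5.02% were higher and 15.2% lower. The median log2 fold change of the list was −0.09. CANX, the chaperone calnexin that holds new heavy chains before B2M binds, measured 265 and 272 TPM in control, against 354 and 346 TPM in oeDAZL. The values did not overlap. The log2 fold change of CANX, 0.38 (standard error 0.05) stood at an adjusted p = 0.0885 in limma. PDIA3, the disulfide isomerase of the loading complex, measured 295 and 307 TPM in control, against 340 and 347 TPM in oeDAZL. For PDIA3 the log2 fold change of 0.19 (standard error 0.05) stood at an adjusted p = 0.145 in limma. PDIA3 missed the unadjusted threshold in limma under 3 of 12 settings tried. These were the fit without a trend, with an unadjusted P = 0.0717 in limma, and those without an oeDAZL library, with 0.0669 without replicate 1 and 0.103 without replicate 2. CALR, the soluble lectin chaperone calreticulin, measured 942 and 960 TPM in control, against 914 and 917 TPM in oeDAZL, with an adjusted p = 0.567 in limma. The ratio of CANX to CALR was accordingly 0.281 and 0.283 in control and 0.387 and 0.378 in oeDAZL.

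Of the inducible catalytic subunits of the proteasome, PSMB8 and PSMB9 were near 0 in both groups and PSMB10 was not, and NLRC5 was near 0. PSMB8 was listed at 0 in control, against 0.0295 and 0.0284 TPM in oeDAZL, and PSMB9 was listed at 0 in all but oeDAZL replicate 1, where it was at 0.0634 TPM. Both encode catalytic subunits of the immunoproteasome, and the start of PSMB9 lies 488 bases from that of TAP1, on the opposite strand. PSMB10, the remaining catalytic subunit of the immunoproteasome, was between 12.2 and 13.8 TPM. The constitutive counterparts PSMB5, PSMB6 and PSMB7 lay between 153 and 266 TPM, and none of these 3 nor of the 3 tested genes of the immunoproteasome and its activator passed the unadjusted threshold. NLRC5, the transactivator of class I genes, measured 0 and 0.0344 TPM in control, against 0.207 and 0.0165 TPM in oeDAZL. Other regulators were present, with IRF1 between 10.1 and 12.2 TPM. None of 13 tested regulators and none of 5 tested genes of the interferon gamma receptor and its signalling passed the threshold in limma, with median log2 fold changes of −0.10 and −0.01. IFNG, the cytokine itself, was listed at 0 in all 4 libraries.

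**Figure D4:**
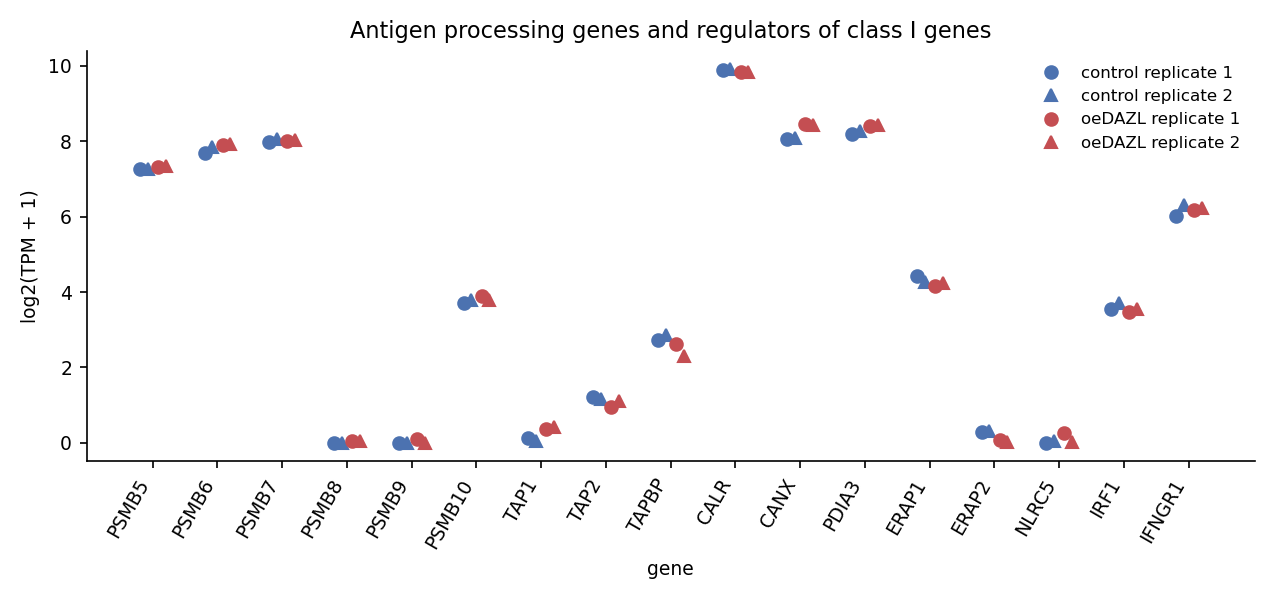
Log2(TPM + 1) of proteasome subunits, transporter and loading genes and regulators in each library, with control in blue, oeDAZL in red, circles for replicate 1 and triangles for replicate 2. PSMB8, PSMB9, TAP1, ERAP2 and NLRC5 lie near 0 in all 4 libraries, whereas the constitutive proteasome subunits and the endoplasmic reticulum chaperones lie above 7 on this scale.

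Relatives of the class I heavy chains moved in both directions. Of 19 such genes 6 were tested, of which 1 was higher and 1 was lower at an unadjusted P of at most 0.05. Over all tested genes 5.02% were higher and 15.2% lower. The median log2 fold change of these relatives was −0.14. PROCR, the endothelial protein C receptor, which has the class I fold but binds no B2M, measured 27.6 and 25.6 TPM in control, against 40.3 and 38.9 TPM in oeDAZL, with a log2 fold change of 0.56 (standard error 0.08) and an adjusted p = 0.0896 in limma. FCGRT, the heavy chain of the neonatal Fc receptor, which does pair with B2M, measured 21.9 and 20.2 TPM in control, against 15.0 and 16.2 TPM in oeDAZL. For FCGRT the log2 fold change of −0.41 (standard error 0.10) stood at an adjusted p = 0.119 in limma. The partner of B2M thus lay lower in the libraries in which B2M lay higher.

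Across the stretch of chromosome 6 from HLA-F to TAPBP, 82 of 303 other annotated genes were tested. Of these, 1 was higher and 11 were lower at an unadjusted P of at most 0.05 in limma, that is 1.22% and 13.4%, against 5.02% and 15.2% of all tested genes, with a median log2 fold change of −0.15 against −0.08. The gene that was higher was POU5F1, the pluripotency factor OCT4, with 13.6 and 10.6 TPM in control, against 22.4 and 20.4 TPM in oeDAZL. POU5F1 has several expressed pseudogenes, so its value is uncertain.

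Markers of other cell types were examined beside these values. Of 9 mesenchyme markers, all tested, 6 were lower and none was higher in oeDAZL at an unadjusted P of at most 0.05. Over all tested genes 15.2% were lower and 5.02% higher at that threshold. The summed level of the mesenchyme markers was 2753 and 2695 TPM in control, against 1949 and 1965 TPM in oeDAZL. The summed level of 11 trophoblast markers was between 770 and 827 TPM. Most of it came from KRT7, at 567 and 633 TPM in control and 675 and 647 TPM in oeDAZL. KRT7 was the 1 tested gene of the list with a positive log2 fold change, and 5 of 7 tested genes were lower at that threshold. Among these was CGA, the alpha subunit of chorionic gonadotropin, at 15.5 and 10.4 TPM in control and 4.34 and 5.82 TPM in oeDAZL. The summed level of 8 endothelial markers was 48.9 and 53.0 TPM in control and 38.7 and 41.3 TPM in oeDAZL, with 2 of 5 tested genes lower. Pluripotency markers summed to 595 and 546 TPM in control and 558 and 535 TPM in oeDAZL. Most of it came from LIN28A, at 476 and 428 TPM in control and 417 and 401 TPM in oeDAZL. Of 6 tested genes 3 were higher at that threshold and none was lower. The other 3, SOX2, LIN28A and DPPA4, had negative log2 fold changes of −0.60, −0.14 and −0.11. The part of these differences in the value of B2M was not tested. Leukocyte markers gave a summed level between 57.4 and 61.1 TPM, nearly all of it from LCP1, while PTPRC, which marks all leukocytes, did not exceed 0.0617 TPM and CD3E was listed at 0.

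The profile of the members over the 4 libraries was nearly flat on average, because B2M and HLA-E lay opposite to the others. The 5 tested genes closest to the mean centred profile of the 6 tested members were ZNF622, KIF1C, MARCKS, DCBLD1 and TMEM165, at Euclidean distances between 0.0122 and 0.0137 on the log2 scale over 4 libraries. Their log2 fold changes lay between −0.05 and −0.04. With 4 libraries such likeness describes a flat profile and no more.

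**Figure D5:**
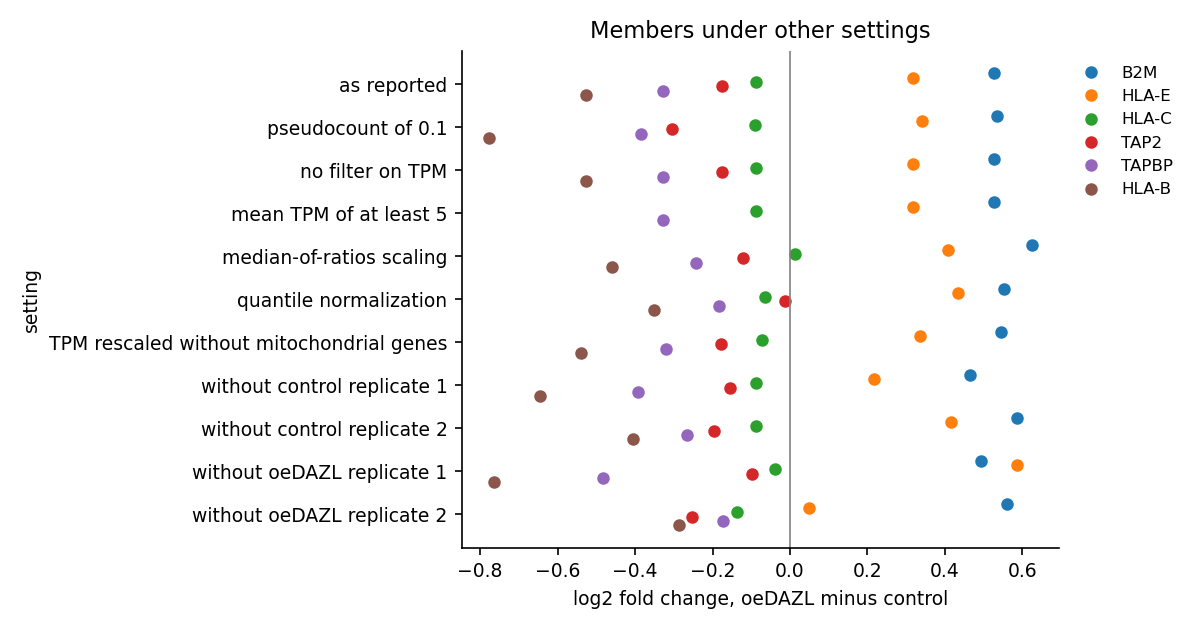
Log2 fold change, oeDAZL minus control, of the 6 tested members as reported and under other settings, with 1 colour per gene. B2M stays between 0.47 and 0.63, HLA-E moves between 0.05 and 0.58 with the oeDAZL library left out, and HLA-C crosses 0 with median-of-ratios scaling. HLA-B and TAP2 have no value at a mean of at least 5 TPM.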

How the data were processed

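The authors deposited TPM per gene for the 4 RNA-seq libraries, 1 column each. Per the submitters' processing notes and the study's methods, reads were trimmed with Trim Galore, mapped to hg38 with HISAT2 2.1.0, kept where unique and quantified with StringTie 2.1.4, with the annotation release not given in the sources used here. The 6 miRNA samples were not analysed here. From 65003 entries, 45 pseudoautosomal copies on chromosome Y and 18 repeated identifiers were left out. Genes that averaged 1 TPM or more were fitted as log2(TPM + 1) with limma 3.58.1 in R 4.3.3 (eBayes with trend, no covariate), adjusted by Benjamini-Hochberg over 16687 genes. The fit was tested on simulated data. The table holds no coordinates, so positions come from GENCODE 44. Members and lists were chosen by name and function, with earlier results of these data known. Named genes are the 9 members, DAZL, genes of the pathway lists past an unadjusted P of 0.05 and the 5 genes of most similar profile; single markers that lead a list by TPM were also named, and POU5F1, the other single markers, the class II chains and the pathway genes past no threshold were named after their values were seen. TPM keeps no depth, and precision rests on the spread between 2 libraries a group, which limma draws toward a trend over all tested genes.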

Additional observations from a re-analysis of the deposited data

How the results depend on the processing

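B2M, TAPBP and TAP2 kept their direction and their side of an unadjusted P of 0.05 under every alternative run for them, and HLA-C turned to 0.012 with median-of-ratios scaling. Members higher at that threshold numbered 1, but 2 without a filter on TPM, where TAP1 entered, and from 1 to 2 with each library left out. Members lower numbered 0, and from 0 to 1 with each library left out. The median log2 fold change of the members, −0.13, became −0.20 with a pseudocount of 0.1, 0.023 without a filter, 0.11 at a mean of at least 5 TPM, −0.055 with median-of-ratios scaling and −0.039 with quantile normalization, and lay between −0.16 and −0.069 with each library left out. Over all genes, 21 higher and 94 lower calls became 55 and 267 with a pseudocount of 0.1, 6 and 23 at a mean of at least 5 TPM, where fewer genes were tested, 41 and 52 with quantile normalization, and 3 and 2 with an adjusted p. With each library left out, they ranged from 35 to 87 higher and from 85 to 235 lower, and a lone library was assumed to vary like the others. Where not stated, the cause was not tested. Nothing in the labels ties libraries of the same number, and their deviations from the group means had a correlation of −0.104 over 16687 genes. The replicate block gave 26 higher and 99 lower calls, and 1 higher and 0 lower member. The crossed pairing, chosen after seeing the data, gave 28 and 107, with B2M also under an adjusted p of 0.05 in limma.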

Other observations

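Class II genes, which present peptides from outside the cell and are mostly restricted to immune cells, were examined in the same fit. Of 13 class II presentation genes, 5 were tested, of which 1 was higher and 1 was lower at an unadjusted P of at most 0.05. Over all tested genes 5.02% were higher and 15.2% lower. CD74, the invariant chain that guides class II molecules, measured 17.1 and 13.1 TPM in control, against 8.28 and 8.16 TPM in oeDAZL. The values did not overlap. The log2 fold change of CD74, −0.79 (standard error 0.15) stood at an adjusted p = 0.0896 in limma. IFI30, a thiol reductase of antigen processing, measured 5.31 and 6.14 TPM in control, against 7.17 and 9.52 TPM in oeDAZL, with a log2 fold change of 0.46 (standard error 0.17) and an adjusted p = 0.213 in limma. IFI30 missed the unadjusted threshold in limma under 3 of 12 settings tried. The unadjusted P in limma was 0.0619 without the filter, 0.122 without control replicate 1 and 0.251 without oeDAZL replicate 2.

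In 2 of the class II pairs the beta chain was listed far above its alpha partner. HLA-DRB1 was between 119 and 130 TPM in the 4 libraries, while HLA-DRA, whose product pairs with it, did not exceed 0.216 TPM. HLA-DQB1 was between 29.7 and 48.7 TPM, while HLA-DQA1 did not exceed 0.294 TPM and CIITA, the transactivator of class II genes, did not exceed 0.801 TPM. The other pairs were lower, with HLA-DPB1 between 0.834 and 1.23 TPM and HLA-DPA1 between 0.0721 and 0.595 TPM, and HLA-DMB and HLA-DOB lay below HLA-DMA and HLA-DOA. These genes were chosen after their values were seen, and the source of the reads was not tested.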
